A study of Mus musculus with 8 samples.

Results

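The 7 genes described here are the fibroblast growth factor (FGF) ligands and receptors best known from the hair follicle: the ligands Fgf5, Fgf7, Fgf10 and Fgf18 and the receptors Fgfr1, Fgfr2 and Fgfr3. Their accessible sites were taken from 4 lists of open-chromatin peaks, 1 for each of 4 sorted cell populations of mouse back skin. A peak was given to a gene when that gene's span was the protein-coding span nearest to the peak's midpoint, within 100 kb and at distance 0 inside the gene (mm10 build). Of 266630 peaks, 204 belonged to the 7 genes: 51 in the bulge list, 39 in the hair germ list, 57 in the basal TAC list and 57 in the suprabasal TAC list. Peaks of the lists that overlapped by at least 1 bp were merged, which gave 86 sites of 102830 at 21631 genes.

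Chromatin was profiled by ATAC-seq, in which a transposase cuts and tags accessible DNA. Bulge cells are the stem cells of the resting follicle, and the hair germ is the small cluster of primed progenitors beneath them. Both were sorted at postnatal day 55, in the second telogen, from Lgr5-eGFP-ires-CreER mice, as GFP+ cells with integrins α6 and β1 that were CD34+ (bulge) or CD34- (hair germ). Transient amplifying cells (TACs) are the dividing matrix cells of the growing follicle, and both TAC populations were sorted in anagen at postnatal day 30. The basal TACs, like the telogen cells, were of the Lgr5-eGFP-ires-CreER strain (GFP-, CD34-, SCA1-, high integrin β1, P-cadherin+). Suprabasal TACs came from K14-H2BGFP mice (low GFP, CD34-, integrin α6-). In the Lgr5 strain GFP is driven from the Lgr5 locus, and in the K14 strain a GFP-tagged histone is driven by the keratin 14 promoter. Sex was mixed in all samples. Stage and age cannot be told apart in these groups, and in every comparison with suprabasal TACs neither can the cell type and the strain. Each list pools 2 samples, so no value has a replicate error, and intervals cover counting error only.

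FGF ligands are secreted proteins that bind FGF receptors, tyrosine kinases of the cell surface, and signal through FRS2 and GRB2 to the MAPK pathway, which in turn induces the Sprouty, Spred and Dusp6 brakes. In the follicle FGF5 is known as the signal that ends hair growth, and mice without it have long hair. FGF18 is known as a telogen signal of the inner bulge layer that holds stem cells at rest. FGF7 and FGF10 are products of the dermal papilla that act on the epithelial splice form of FGFR2.

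A pair of properties of the lists bear on all values. Depth was 24065469 fragments for bulge cells, 11053351 for hair germ cells, 30824845 for basal TACs and 47852893 for suprabasal TACs, so coverage at a peak's summit is given as fragments per 1000000 fragments of its library (FPM). Enrichment also differed: at the 29712 sites that all 4 lists hold, median coverage was 4.20, 4.34, 3.15 and 1.94 FPM in the same order. A second scale, called the relative level here, divides the coverage of a peak by this median of its own list. Across all shared sites the median log2 ratio of FPM was -0.0031 for hair germ against bulge, -0.50 for basal TAC against hair germ, -0.56 for suprabasal against basal TAC and -1.07 for suprabasal TAC against bulge. On the relative level the same medians were -0.05, -0.04, 0.13 and 0.04, and changes in level are judged on that scale. The low end of the calling range, taken as the 5th percentile of coverage in a list, was 15, 9, 18 and 19 fragments. Absence of a peak means that none was called, and coverage between peaks was not used here.

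The sorts were checked by sites at marker genes. The 7 bulge markers had 104 sites in bulge cells, 88 in hair germ cells, 84 in basal TACs and 68 in suprabasal TACs, and the 5 suprabasal markers had 36, 30, 48 and 75. Itgb1, on which basal TACs and the telogen cells were selected, had 7, 6, 11 and 1. Cdh3 (P-cadherin), also used to select basal TACs, had 12, 10, 10 and 13, most in suprabasal TACs. Itga6 (integrin α6), for which suprabasal TACs were sorted as negative, had 17, 14, 12 and 13. Cd34, for which only bulge cells were sorted as positive, had 9, 7, 6 and 6, most in the bulge. Lgr5, whose locus drives GFP in the Lgr5 strain, had 22, 17, 17 and 7, the same in GFP+ hair germ cells and GFP- basal TACs. The sort markers thus did not all follow the sorts. The 3 hair germ markers had 19, 22, 31 and 42 sites and the 5 basal TAC markers 38, 40, 58 and 66, so these markers were not richest in the lists they name. The 4 epithelial markers had 48, 42, 50 and 59. Of markers of other cells, 9 dermal genes had 19, 13, 34 and 31 sites, 5 melanocyte genes 31, 23, 33 and 35 (Tyr 0 in all), 4 immune genes 3, 5, 10 and 11 (Tyrobp 0 in all) and 4 endothelial genes 30, 29, 38 and 21.

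The promoters of the ligands and of Fgfr2 are shown because their state in the lists differed: the annotated start lay in a peak of both TAC lists and no telogen list for Fgf5, in a peak of all 4 lists for Fgf18, in no list for Fgf7 and Fgf10, and in a bulge peak only for Fgfr2. At Fgfr2 this turned on the edge of a peak that all 4 lists held. The hair germ, basal TAC and suprabasal TAC peaks ended 108, 38 and 10 bp short of the start. Over all annotated starts, 41.4% lay in a bulge peak, 39.9% in a hair germ peak, 42.6% in a basal TAC peak and 41.4% in a suprabasal TAC peak. Each run holds 250 bases before and 50 bases after the start, 5′ to 3′ on the gene's strand, from RefSeq (GRCm38.p6, the assembly of mm10). Capitals mark every match, on either strand, to one of 10 motifs: TGANTCA for AP-1 factors, CTTTGA for the TCF/LEF family, AGATAA for GATA-binding zinc fingers, TGTGGT for the RUNX family, CCGGAA for the ETS family, the palindromic NFI motif, TAATTA for homeobox factors, GTCTAGAC for SMAD proteins, ACAATG for the SOX family and GGGCGG for the KLF/SP family. A further motif, the E-box (CANNTG), was counted and not capitalised.
Fgf5, chr5:98253934-98254233, plus strand: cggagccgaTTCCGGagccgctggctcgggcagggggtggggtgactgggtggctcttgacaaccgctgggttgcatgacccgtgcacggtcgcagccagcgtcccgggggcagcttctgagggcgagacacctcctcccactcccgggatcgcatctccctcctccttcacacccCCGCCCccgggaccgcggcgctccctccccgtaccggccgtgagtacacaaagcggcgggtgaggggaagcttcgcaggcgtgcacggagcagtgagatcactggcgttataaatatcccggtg
Fgf18, chr11:33147351-33147650, minus strand: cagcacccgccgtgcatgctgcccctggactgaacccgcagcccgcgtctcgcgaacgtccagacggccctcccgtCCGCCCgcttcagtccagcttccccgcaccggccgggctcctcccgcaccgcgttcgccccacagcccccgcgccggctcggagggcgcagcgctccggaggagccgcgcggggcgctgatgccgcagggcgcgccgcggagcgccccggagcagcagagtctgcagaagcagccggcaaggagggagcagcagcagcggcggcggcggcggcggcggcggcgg
Fgf7, chr2:126034408-126034707, plus strand: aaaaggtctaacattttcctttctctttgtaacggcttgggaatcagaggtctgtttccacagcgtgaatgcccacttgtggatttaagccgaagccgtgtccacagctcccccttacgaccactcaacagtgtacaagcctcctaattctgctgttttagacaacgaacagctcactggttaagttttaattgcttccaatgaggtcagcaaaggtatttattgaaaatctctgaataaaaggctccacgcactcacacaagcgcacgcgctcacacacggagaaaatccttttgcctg
Fgf10, chr13:118714449-118714748, plus strand: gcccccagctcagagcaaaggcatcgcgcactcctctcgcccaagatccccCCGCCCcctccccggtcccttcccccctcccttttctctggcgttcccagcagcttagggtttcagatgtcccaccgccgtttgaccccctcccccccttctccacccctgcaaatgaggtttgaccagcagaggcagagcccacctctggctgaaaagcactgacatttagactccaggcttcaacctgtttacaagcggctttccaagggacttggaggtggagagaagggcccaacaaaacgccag
Fgfr2, chr7:130266759-130267058, minus strand: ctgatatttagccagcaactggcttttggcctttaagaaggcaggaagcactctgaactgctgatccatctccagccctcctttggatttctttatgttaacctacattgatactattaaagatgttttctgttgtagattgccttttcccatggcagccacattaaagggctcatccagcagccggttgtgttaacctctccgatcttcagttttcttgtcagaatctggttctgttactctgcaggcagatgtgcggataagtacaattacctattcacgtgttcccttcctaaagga

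Base composition set the promoters apart from each other. GC content was 78.7% with 47 CpG dinucleotides for Fgf18 and 68.3% with 29 for Fgf5, against a median of 52.7% and 7 over 32851 promoters of 27025 genes. Fgf10 had 60.7% and 10, Fgf7 45.7% and 11, and Fgfr2 43.7% and 4. The Fgf5 window held 1 ETS match, from 241 bases before the start, and 1 KLF/SP match, from 74 bases before it. Fgf18 and Fgf10 held 1 KLF/SP match each, 174 and 199 bases before the start. Fgf7 and Fgfr2 held none of the 10 capitalised motifs, and E-boxes numbered 1 in Fgf7, 2 in Fgf10 and 3 in Fgfr2. The ETS motif occurs in 14.9% of all these promoters, KLF/SP in 35.7% and the E-box in 72.3%. The others occur in 7.81% (AP-1), 16% (TCF/LEF), 11.2% (GATA), 16.8% (RUNX), 0.0365% (NFI), 5.29% (homeobox), 0.213% (SMAD) and 12.6% (SOX). Fgfr3 has 2 annotated starts in the table, with 69.7% and 73.0% GC and 4 and 2 KLF/SP matches, of which the pair at the second start share a base. A match describes letters only and says nothing of binding.

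Sites at the 7 genes were unevenly spread. Fgf5 had 0 bulge sites, 0 hair germ sites, 11 basal TAC sites and 5 suprabasal TAC sites. Fgf18 had most in the bulge, with 9, 4, 6 and 4 in the same order, and Fgf7 and Fgf10 had none in any list. Among receptors Fgfr1 had 8, 6, 12 and 7 sites, Fgfr2 28, 22, 21 and 31, and Fgfr3 5, 4, 6 and 8. Together the ligands had 9, 4, 17 and 9 sites and the receptors 41, 32, 39 and 46. Of the 86 sites 42 lay inside a gene's span and 44 outside.

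**Figure D1:**
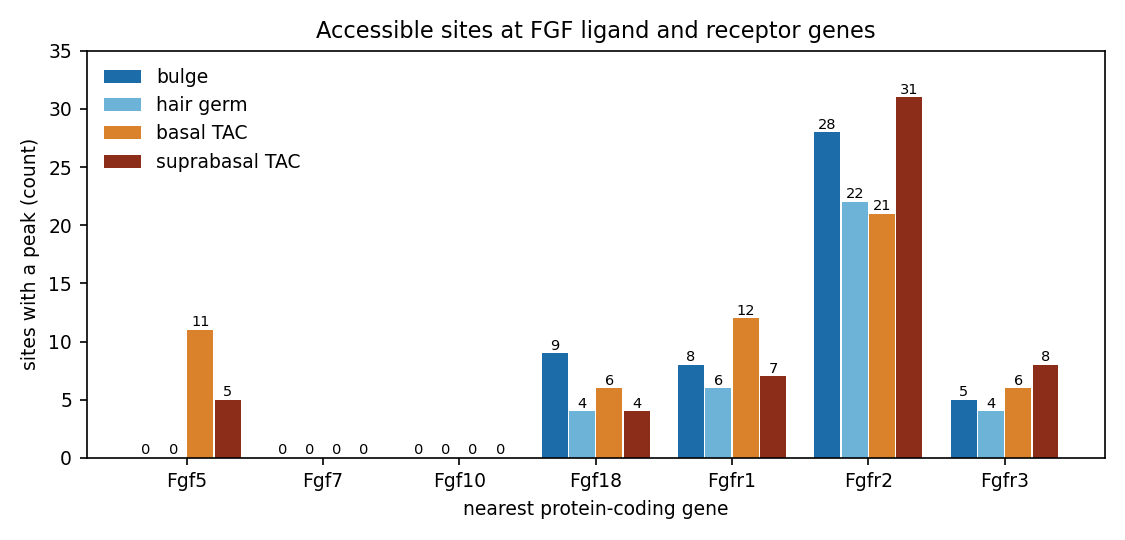
Number of sites with a peak (y axis, count) at each of the 7 genes (x axis) in each of the 4 lists (bars, 1 pooled list each, no error). Fgf5 has bars in the TAC lists only, with 11 and 5 sites, while Fgfr2 has 21 to 31 sites in every list.

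Of the 86 sites, 26 were held by all 4 lists, where 28.9% of all sites are. Another 13 were held by telogen lists only (background 14.9%), 4 of them by both (6.26%), 8 by the bulge alone (6.35%) and 1 by the hair germ alone (2.26%). Anagen lists alone held 34 (40.4%), 10 of them in both (10.8%), 12 in basal TACs alone (13.7%) and 12 in suprabasal TACs alone (15.8%). As a group, then, the 86 sites were divided among the populations much as all sites were, and the differences lay between the genes. All 11 Fgf5 sites were in anagen lists only, whereas Fgf18 had 1 such site of 10. Fgfr2 held all 4 sites that were in both telogen lists and no anagen list.

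At Fgf5 (chr5:98254184-98277033, plus strand), the ligand known for ending the growth phase, peaks were called in the TAC populations only. The site over the start, chr5:98253337-98254871, had a summit coverage of 136 fragments (4.41 FPM) in basal TACs and 38 (0.794 FPM) in suprabasal TACs, with no peak in either telogen list. The summits lay 62 and 4 bp after the annotated start. Within its own list the basal peak stood at percentile 84.8 of coverage and the suprabasal one at percentile 36.1. Had the telogen libraries held the basal level, it would have come to 106 fragments at bulge depth and 49 at hair germ depth, above their low calling levels of 15 and 9.

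Downstream of the gene 4 more sites were open in both TAC lists. The site at 29.7 kb from the start, chr5:98283194-98284578, had the highest basal coverage of the locus, 157 fragments (5.09 FPM) against 25 (0.522 FPM) in suprabasal TACs. The site at 47.5 kb, chr5:98301201-98302264, had 155 (5.03) and 27 (0.564). The pair at 37.0 and 39.0 kb had 4.25 and 3.37 FPM in basal TACs against 0.815 and 1.13 in suprabasal TACs. The last of these, chr5:98292559-98293781, was the highest Fgf5 site of the suprabasal list. In all 5 shared sites, then, basal TACs were higher on both scales. Fold enrichment over local background, as the authors' caller gives it, was less uniform. It was 5.37 in basal and 5.29 in suprabasal TACs at the start, and 4.47 and 5.37 at 39.0 kb. At 29.7, 37.0 and 47.5 kb it was 9.03, 5.58 and 11.9 in basal TACs against 3.70, 4.05 and 3.99 in suprabasal TACs. The list medians were 6.71 and 4.79.

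The gap between the TAC layers exceeded counting error at each of the Fgf5 sites examined. At the start the relative level was 1.40 in basal and 0.41 in suprabasal TACs, a 3.43-fold difference (95% counting interval 2.38 to 5.06). At 29.7 kb it was 6.02-fold (3.93 to 9.59), at 47.5 kb 5.50-fold (3.64 to 8.62) and at 39.0 kb 1.85-fold (1.32 to 2.62). The median log2 ratio over the 5 sites was -1.78, while over all sites shared by the TAC lists it was 0.13.

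The other 6 Fgf5 sites were called in basal TACs alone. The strongest, chr5:98249906-98250815, lay 3.82 kb before the start with 137 fragments (4.44 FPM). The 4 inside the gene had 0.714, 1.27, 2.69 and 0.584 FPM, and the site 25.2 kb before the start had 1.10. Of these 6 sites, 4 had coverage that would have reached the low calling level in every other list. The remaining pair, at 6.63 and 20.2 kb from the start, would have come to 7.89 and 6.45 fragments at hair germ depth, below its low level of 9, and the farther one to 14.1 at bulge depth, below 15. Both would have exceeded the low level of 19 in suprabasal TACs, at 34.2 and 27.9, with depth alone considered. The suprabasal list was also less enriched at common sites (1.94 against 3.15 FPM in basal TACs), which these counts do not take in.

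**Figure D2:**
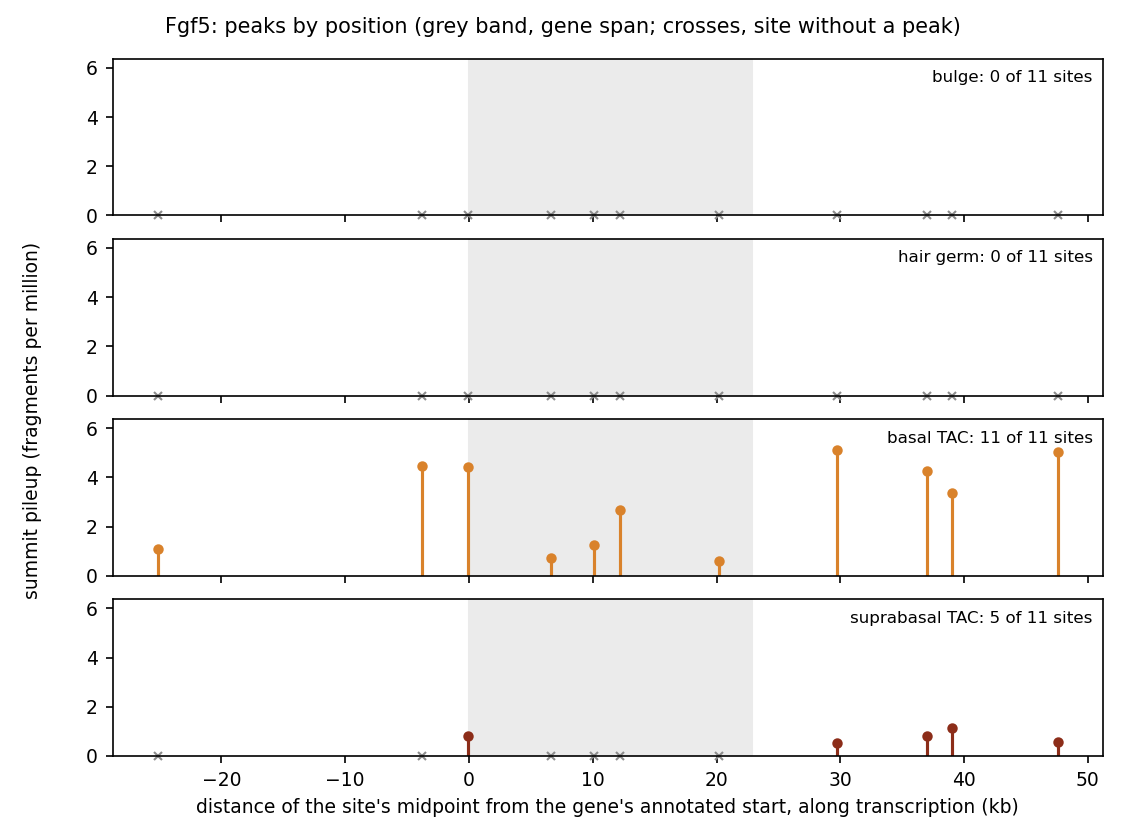
Summit coverage (y axis, FPM) of each Fgf5 peak against the distance of its site from the annotated start along transcription (x axis, kb), 1 panel per pooled list. The telogen panels hold 0 of 11 sites, basal TACs hold 11, up to 5.09 FPM, and suprabasal TACs hold 5, up to 1.13.

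Few genes had many sites in a TAC list and none in telogen. Of 21631 genes, 23 (0.106%) had 0 sites in both telogen lists and at least 5 in basal TACs, and 21 (0.0971%) had 0 there and at least 5 in suprabasal TACs. Of the former, 2 had at least 11 basal sites, Fgf5 and Adamts16 (0, 0, 12 and 3), which was looked up after its values were seen. The cut of 11 is the count of Fgf5 itself. Only 6756 of all genes had at least 5 sites over the 4 lists, so these small shares partly reflect how few genes have many sites. The nearest telogen peaks lay 68.0 kb (bulge) and 67.8 kb (hair germ) from the Fgf5 start, beside Prdm8. The dermal markers did not move one way between the TAC lists. Lum had 0, 0, 2 and 0 sites, Prrx1 0, 0, 2 and 1 and Dpt 4, 2, 8 and 0, whereas Twist2 had 1, 1, 4 and 10, Pdgfrb 1, 0, 4 and 5, Vcan 1, 2, 4 and 4, Col1a1 6, 3, 4 and 5, Pdgfra 6, 4, 5 and 6 and Col3a1 0, 1, 1 and 0. In suprabasal against basal TACs 4 of them had more sites and 4 fewer. Of the 9 dermal markers 6, 6, 9 and 6 had a site in the bulge, hair germ, basal and suprabasal lists. The part of other cells in the Fgf5 sites was not tested.

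Fgf7 (chr2:126034658-126091185, plus strand), the keratinocyte growth factor, had no peak inside its span in any list. Its span overlaps Fam227b (chr2:125983473-126152153), and peaks close before its start are therefore given to that gene. The nearest was a basal TAC peak at chr2:126031211-126031809, 3.15 kb before the start, with 96 fragments (3.11 FPM). A second basal peak, 26.8 kb before it, had 19 fragments (0.616 FPM). A site 46.3 kb before the start was called in the bulge with 16 fragments (0.665 FPM) and in basal TACs with 33 (1.07 FPM). A bulge peak 58.5 kb before the start, given to Galk2, had 41 fragments (1.70 FPM). With Fam227b left out, an alternative chosen after seeing the data, Fgf7 gained 1 site, in the basal TAC list. Hair germ and suprabasal TACs had no peak within 100 kb of the start.

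Fgf10 (chr13:118714699-118792573, plus strand), the other papilla ligand, had no peak within 100 kb in any list. It lies in a long stretch without other protein-coding genes, 327.4 kb from Mrps30 and 543.0 kb from Nnt. The nearest peak in every list was 327 kb from its start, at Mrps30. In all, 4551 genes (21.0%) had no site in any list, so a gene without a site is common in these data.

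Fgf18 (chr11:33116970-33147400, minus strand), the telogen ligand, was open at its start in all 4 populations. The site chr11:33146874-33148807 had 243 fragments in bulge cells (10.1 FPM), 108 in hair germ cells (9.77), 105 in basal TACs (3.41) and 204 in suprabasal TACs (4.26). It was the strongest Fgf18 site in each list. Its summits lay 933, 974, 1121 and 889 bp upstream of the annotated start, inside the same peak. Relative levels were 2.41, 2.25, 1.08 and 2.19, so basal TACs stood below the other populations. The bulge was 2.22-fold above basal TACs (95% counting interval 1.76 to 2.82), the hair germ 2.08-fold (1.57 to 2.75) and suprabasal TACs 2.03-fold (1.59 to 2.59). Bulge and hair germ differed 1.07-fold (0.849 to 1.35) and bulge and suprabasal TACs 1.10-fold (0.907 to 1.33), both within counting error.

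The other 9 Fgf18 sites were weaker and lay downstream of the start, at 7.32 to 69.2 kb. The site chr11:33089767-33091062, 57.0 kb downstream and beyond the gene's end, had 2.04, 2.44, 2.47 and 1.38 FPM (relative levels 0.49, 0.56, 0.78 and 0.71). The site at 69.2 kb had 2.04, 1.72, 1.27 and 0.627 FPM. The bulge held 3 sites of its own, with 1.08, 1.41 and 0.623 FPM, and 2 with basal TACs only. The last of the 3 had 15 fragments, which is the low calling level of the bulge. Of the 2 shared with basal TACs, 1 had 12 bulge fragments, below that level. At a −log10 q of 10 or more Fgf18 had 6, 3, 5 and 3 sites in the same order of lists. Suprabasal TACs held 1 of their own at 0.439 FPM, near their low calling level of 0.397. No Fgf18 site was held by both telogen lists alone or by both TAC lists alone. The gene next to the start is Npm1, 5.10 kb away.

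Fgfr1 (chr8:25518759-25575718), a receptor gene best known from mesenchyme, had its strongest site at the lower-numbered end of its span. This site, chr8:25518587-25519095, had 116 fragments in bulge cells (4.82 FPM), 71 in hair germ cells (6.42), 189 in basal TACs (6.13) and 148 in suprabasal TACs (3.09). Summits of all 4 lists lay within 22 bp of that end. Relative levels were 1.15, 1.48, 1.95 and 1.59, highest in basal TACs. Basal TACs exceeded the bulge 1.70-fold (1.34 to 2.16), while against the hair germ the ratio was 1.32-fold (0.998 to 1.76) and suprabasal TACs stood at 0.817 of basal TACs (0.654 to 1.02), both within counting error.

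Inside Fgfr1 the sites differed in opposite ways. At chr8:25527138-25528151 coverage was 1.04, 2.71, 2.63 and 1.13 FPM, with relative levels of 0.25, 0.62, 0.84 and 0.58. The bulge was lowest there, and basal TACs exceeded it 3.37-fold (2.13 to 5.52). At chr8:25536553-25537779 coverage was 4.65, 3.62, 3.99 and 1.07 FPM, with relative levels of 1.11, 0.83, 1.27 and 0.55. Here suprabasal TACs were lowest, 2.31-fold under basal TACs (1.66 to 3.27). A site 0.879 kb into the span, chr8:25519329-25519947, was called in the bulge alone at 1.99 FPM. The only site of both TAC lists and no telogen list, chr8:25554864-25556116, was weak, at 0.779 and 0.439 FPM. Basal TACs held 3 sites of their own below the span, at 0.422 to 1.07 FPM, and 1 of them would have reached the low calling level in every other list.

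Fgfr2 (chr7:130162451-130266808, minus strand), the receptor for FGF7 and FGF10 in epithelium, carried 44 of the 86 sites, and 24 of them lay inside its span of 104 kb. The site at the start, chr7:130264963-130266819, had 264 fragments in bulge cells (11.0 FPM), 121 in hair germ cells (10.9), 170 in basal TACs (5.52) and 212 in suprabasal TACs (4.43). Summits lay 482 to 559 bp inside the gene, so the printed promoter window is at the edge of the peak: the hair germ, basal and suprabasal peaks ended 108, 38 and 10 bp short of the annotated start. Relative levels were 2.61, 2.52, 1.75 and 2.28. Basal TACs were lowest, 1.49-fold under the bulge (1.23 to 1.82) and 1.44-fold under the hair germ (1.13 to 1.83). Suprabasal TACs and bulge differed 1.15-fold (0.953 to 1.38), within counting error.

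Beyond the start the order of the populations differed from site to site along the Fgfr2 locus. The farthest upstream site, chr7:130325115-130326859, 59.2 kb before the start, had 179, 75, 51 and 86 fragments, or 7.44, 6.79, 1.65 and 1.80 FPM. Both telogen lists were high there, and the bulge exceeded basal TACs 3.37-fold in relative level (2.46 to 4.70). A neighbouring site, 53.4 kb before the start, had relative levels of 0.53, 0.54, 0.21 and 1.04, and basal TACs were again lowest. Upstream sites nearer the start that all 4 lists held had their lowest relative level in the bulge. The levels were 0.54, 0.94, 1.46 and 1.11 at 22.2 kb, 0.98, 1.23, 1.45 and 1.88 at 19.6 kb, and 0.25, 0.31, 0.45 and 0.49 at 6.58 kb. The telogen lists shared 4 sites that no TAC list held, all inside the gene at 18.7 to 28.1 kb from the start (chr7:130238501-130248360). Their coverage was 1.29, 3.91, 1.04 and 1.12 FPM in bulge cells and 2.08, 2.53, 2.08 and 1.90 FPM in hair germ cells. Fold enrichment at these 4 sites was 2.33, 6.69, 2.98 and 3.06 in bulge cells, below the list's median of 7.48. In hair germ cells it was 3.86, 4.30, 3.94 and 3.54, below a median of 7.14. The caller's −log10 q was 3.53, 44.8, 4.85 and 5.46 in bulge cells and 5.36 to 9.12 in hair germ cells.

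A pair of downstream sites were highest in basal TACs on both scales. At chr7:130098269-130099256, 168 kb from the start, coverage was 82 fragments in bulge cells (3.41 FPM), 55 in hair germ cells (4.98), 274 in basal TACs (8.89) and 83 in suprabasal TACs (1.73). It was the strongest Fgfr2 site of the basal list, at percentile 97.9 of all its peaks, above the site at the gene's own start. The relative level in basal TACs was 2.82, which was 3.48-fold over the bulge (2.71 to 4.51), 2.47-fold over the hair germ (1.84 to 3.36) and 3.17-fold over suprabasal TACs (2.47 to 4.10). At chr7:130121652-130123871, 144 kb from the start, relative levels were 0.27, 0.46, 1.97 and 1.05, and basal TACs exceeded the bulge 7.37-fold (4.91 to 11.5). Their neighbours varied. The site at 149 kb, between them, had relative levels of 1.08, 1.17, 1.27 and 0.84, the site at 158 kb 0.66, 0.98, 0.38 and 0.49, and the site at 175 kb had no basal peak. Sites of both TAC lists and no telogen list numbered 2: chr7:130129258-130129986, with 0.584 FPM in basal and 1.19 in suprabasal TACs, and chr7:130143355-130144211, with 1.23 and 0.439.

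An internal site was highest in suprabasal TACs. At chr7:130206369-130207886, 59.7 kb from the start, coverage was 27, 14, 85 and 153 fragments (1.12, 1.27, 2.76 and 3.20 FPM). Relative levels were 0.27, 0.29, 0.88 and 1.65, the last 6.15-fold over the bulge (4.07 to 9.64). At the site 51.2 kb from the start, the strongest internal site beyond it in the other 3 lists, relative levels were nearly even, at 1.44, 1.27, 1.36 and 1.28. A site 39.9 kb from the start was called in the bulge at 0.831 and in suprabasal TACs at 1.76 FPM. Suprabasal TACs held 10 sites of their own, 8 of them inside the gene, with 0.397 to 2.01 FPM. Their fold enrichment over local background, as the authors' caller gives it, was 1.78 to 3.57 with a median of 2.26, below the list's median of 4.79. Of the 10, 6 would have reached the low calling level in every other list. The bulge held 4 sites of its own, at 0.956 to 1.37 FPM.

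**Figure D3:**
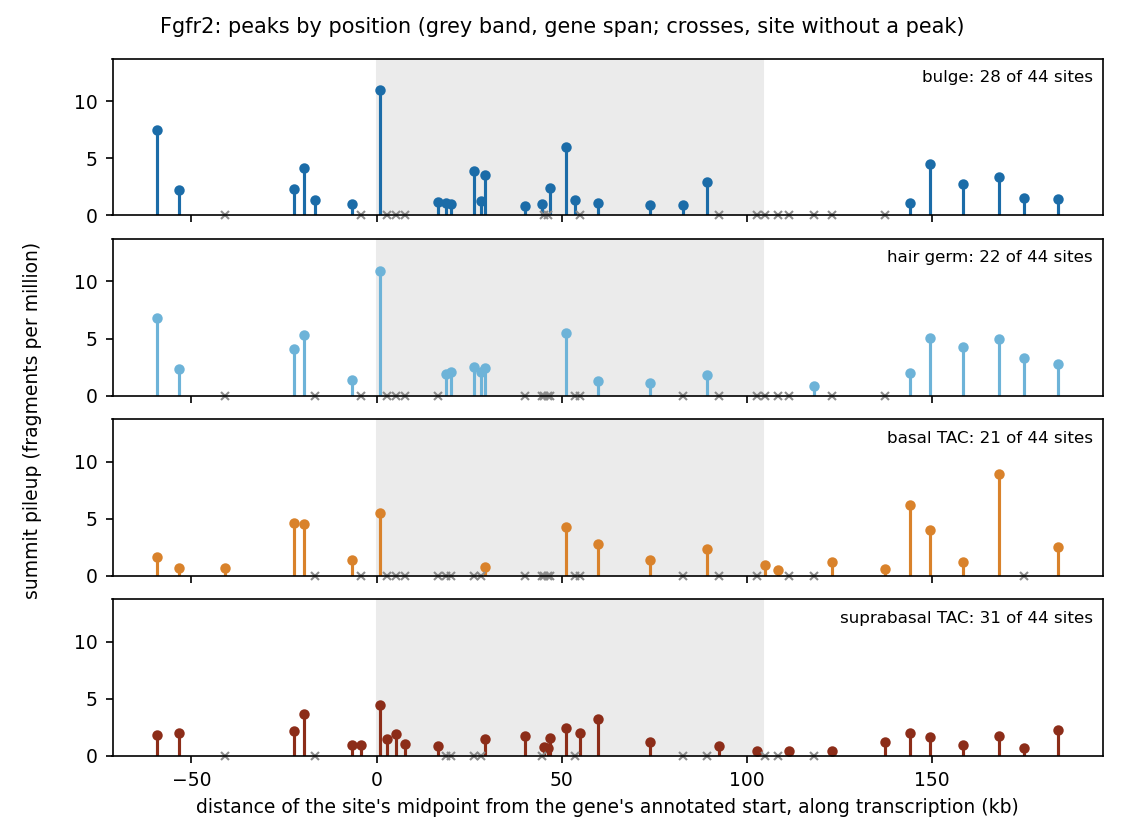
Summit coverage (y axis, FPM) of each Fgfr2 peak against the distance of its site from the annotated start along transcription (x axis, kb), 1 panel per pooled list. The site at the start is the highest in the bulge (11.0) and hair germ (10.9), and the site at 168 kb is the highest in basal TACs (8.89).

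Fgfr3 (chr5:33721724-33737068, plus strand), a receptor known for restraining the growth of bone, was open at its start in all 4 lists. The site chr5:33720946-33724461 had 164 fragments in bulge cells (6.81 FPM), 73 in hair germ cells (6.60), 119 in basal TACs (3.86) and 164 in suprabasal TACs (3.43). Summits lay 64 or 65 bp after the first annotated start in every list. Relative levels were 1.62, 1.52, 1.23 and 1.76, and suprabasal TACs exceeded basal TACs 1.44-fold (1.13 to 1.84). A site upstream, chr5:33712313-33714219, 8.46 kb before the start, had 175, 66, 73 and 194 fragments, or 7.27, 5.97, 2.37 and 4.05 FPM. In relative level (1.73, 1.38, 0.75 and 2.09) suprabasal TACs exceeded basal TACs 2.77-fold (2.11 to 3.68), and the bulge exceeded basal TACs 2.30-fold (1.74 to 3.07). It was the strongest Fgfr3 site of the bulge and of suprabasal TACs.

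The remaining Fgfr3 sites were weaker or partial. A site 4.75 kb before the start had 3.99, 4.16, 2.37 and 2.05 FPM. The sites of both TAC lists and no telogen list were chr5:33728938-33730643 inside the gene, with 1.72 FPM in basal and 0.627 in suprabasal TACs, and chr5:33707202-33707542, with 0.746 and 0.522. A site 8.77 kb into the gene had a peak in the bulge (2.70), hair germ (1.90) and suprabasal TACs (0.794) and none in basal TACs. A site 3.40 kb before the start was called in suprabasal TACs alone at 1.27 FPM.

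At the gene starts the order of the populations thus differed by gene. Fgf18, Fgfr2 and Fgfr3 had their lowest relative level in basal TACs, at 1.08, 1.75 and 1.23. Fgf5 and Fgfr1 had their highest there, at 1.40 and 1.95. At Fgfr3 basal TACs stood at 0.807 of the hair germ (0.598 to 1.09), within counting error. The order also depended on the scale. In FPM suprabasal TACs were below basal TACs at Fgfr2 (4.43 against 5.52) and Fgfr3 (3.43 against 3.86), and the hair germ was highest at Fgfr1 (6.42 against 6.13 in basal TACs). In FPM the telogen lists were higher than both TAC lists at Fgf18, Fgfr2 and Fgfr3, whereas on the relative scale suprabasal TACs, at 2.19, 2.28 and 1.76, stood beside bulge values of 2.41, 2.61 and 1.62.

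**Figure D4:**
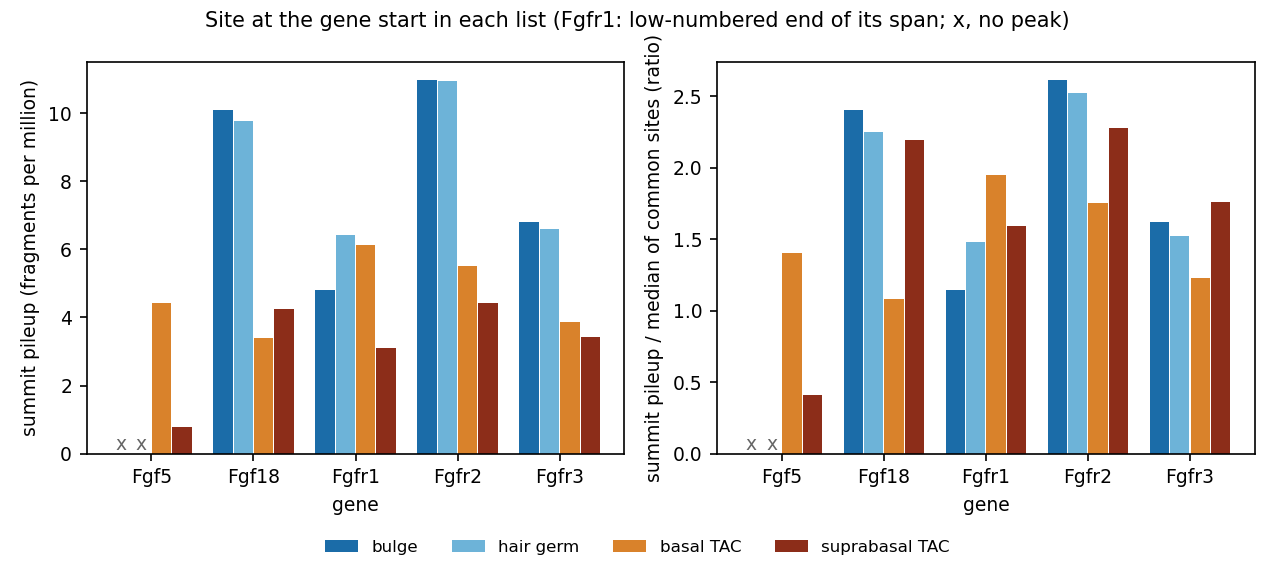
Summit coverage of the site at the gene start in each pooled list, as FPM (left y axis) and as a ratio to the list's median over common sites (right y axis), for 5 genes (x axis). For Fgfr1 the site at the low-numbered end of the span is shown. Basal TACs have the lowest bar of the right panel at Fgf18 (1.08), Fgfr2 (1.75) and Fgfr3 (1.23), and the x marks at Fgf5 stand for no peak.

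The hair germ was first compared with the bulge, the telogen population it adjoins. Sites with a bulge peak and no hair germ peak numbered 7 at Fgfr2, 5 at Fgf18, 3 at Fgfr1 and 1 at Fgfr3, and the reverse was seen at 1 site of Fgfr1 and 1 of Fgfr2. Of 52 sites in either list, 34 were shared, 16 were in the bulge alone (18.9% of all such sites are) and 2 in the hair germ alone (9.71%). The hair germ thus held 11.1% of the changed sites (95% interval 1.38 to 34.7), against 33.9% over all genes. When absence was counted only where the level would have reached the low calling level of the list without a peak, the hair germ library being the shallowest, the counts were 2 and 14, a share of 12.5% against 43.3% over all sites. With equal numbers of peaks per list the counts were 5 and 11, a share of 31.2% against 47.4%, and at Fgfr2 they became 4 and 4. Of the shared sites 2 were at least 2-fold higher in the hair germ in relative level (4.81% over all sites) and 1 at least 2-fold lower (5.01%). The member median log2 ratio was 0.12, and 20 of 34 were above 0.

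Basal TACs were next compared with the hair germ. Fgf5 contributed 11 of the 27 sites held by basal TACs alone, followed by Fgfr1 with 6, Fgfr2 with 5, Fgfr3 with 3 and Fgf18 with 2. The hair germ alone held 7, 6 at Fgfr2 and 1 at Fgfr3. Of 63 sites 29 were shared. Basal TACs held 79.4% of the changed sites (62.1 to 91.3), against 71.8% over all genes, where 37.1% of sites had a basal TAC peak alone and 14.5% a hair germ peak alone. With absence scaled for depth the counts were 17 and 7, with 9 of the 17 at Fgf5, a share of 70.8% against 64.6% over all sites. With equal numbers of peaks they were 15 and 12, 55.6% against 52.0%, and at Fgfr1 2 and 2. In relative level 3 shared sites were at least 2-fold higher in basal TACs (13.9% over all sites) and 5 at least 2-fold lower (10.3%). In FPM 9 of 29 were higher and 20 lower, and in relative level 18 and 11, so the direction depends on the scale.

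Between the TAC layers the members split by gene. Sites called in suprabasal TACs alone numbered 14 at Fgfr2, 2 at Fgfr3 and 1 at Fgf18. Sites called in basal TACs alone numbered 6 at Fgf5, 5 at Fgfr1, 4 at Fgfr2 and 3 at Fgf18. Of 73 sites 38 were shared, 17 were suprabasal only and 18 basal only. The share of 48.6% (31.4 to 66.0) was close to the 47.1% of all genes, where 22.9% of sites were suprabasal only and 25.7% basal only. In relative level 5 shared sites were at least 2-fold higher in suprabasal TACs (12.5% over all sites) and 6 lower (10.6%), 4 of these at Fgf5. In FPM 8 of 38 were higher and 30 lower, and in relative level 19 and 19. With absence scaled for depth the suprabasal count at Fgfr2 was 12, and the 4 basal ones were counted as before. Over all members this gave 14 and 18, a share of 43.8% against 35.6% over all sites. With equal numbers of peaks the counts were 11 and 10, 52.4% against 50.8%.

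Suprabasal TACs were last compared with the bulge, across the whole lineage. Sites of suprabasal TACs alone numbered 12 at Fgfr2, 5 at Fgf5, 3 at Fgfr3 and 1 each at Fgfr1 and Fgf18. Sites of the bulge alone numbered 9 at Fgfr2, 6 at Fgf18 and 2 at Fgfr1. Of 72 sites 33 were shared, 22 were suprabasal only (35.1% of all sites) and 17 bulge only (23.7%). The share of 56.4% (39.6 to 72.2) was near the 59.7% of all genes. In relative level 7 of the 33 were at least 2-fold higher in suprabasal TACs (18.2% over all sites) and 1 was lower (13.0%). Fgfr2 had a median log2 ratio of 0.70 in relative level over its shared sites, where all sites had 0.04. In FPM 6 were higher and 27 lower, and in relative level 20 and 13. With absence scaled for depth the counts were 14 and 17, a share of 45.2% against 48.5% over all sites, and at Fgfr2 9 and 9. With equal numbers of peaks they were 10 and 12, 45.5% against 51.3%. These 4 comparisons share lists and are not independent of each other.

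**Figure D5:**
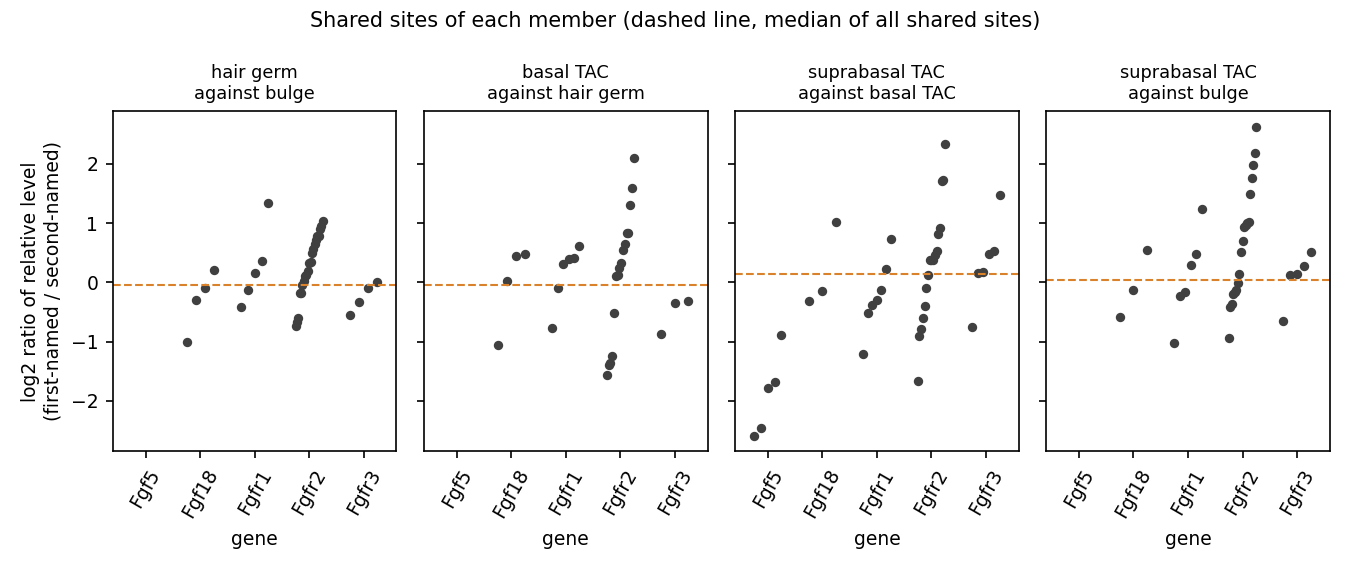
Log2 ratio of the relative level (y axis, first-named over second-named list) at each site shared by both lists, by gene (x axis) and comparison (panels). Each point is 1 site and the dashed line the median of all shared sites. In suprabasal against basal TACs all 5 Fgf5 points lie below the line, down to -2.59, and Fgfr2 points spread on both sides.

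The rest of the FGF pathway was described with 3 further lists. The other 18 Fgf genes had 37 bulge sites, 33 hair germ sites, 51 basal TAC sites and 43 suprabasal TAC sites. Of these genes 16 had a site in some list. They include Fgf11, Fgf12, Fgf13 and Fgf14, whose products are not secreted receptor ligands, with 0, 5, 4 and 4 sites over the lists. Other receptors, co-receptors and adaptors, 11 genes of which 10 had a site, had 38, 38, 60 and 67. Feedback regulators and targets, all 12 with a site, had 73, 74, 111 and 91. In basal TACs against the hair germ 10 of the Fgf genes, 7 adaptor-list genes and 9 feedback genes had more sites, and 2, 0 and 1 fewer. Over all genes 37.6% had more and 10.7% fewer, and the median difference was 0, beside medians of 1, 2 and 2.5 in the 3 lists.

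The same counts were made for the other comparisons. In hair germ against bulge 3, 1 and 5 genes of these lists had more sites and 6, 2 and 4 fewer, where 10.6% of all genes had more and 22.2% fewer. In suprabasal against basal TACs 4, 4 and 1 had more and 7, 3 and 6 fewer (24.8% and 24.4% of all genes). In suprabasal TACs against the bulge 10, 7 and 6 had more and 4, 1 and 1 fewer (34.6% and 17.4%). The median differences of that comparison were 1, 2 and 0.5, against 0 over all genes, again not matched for number of sites. Of its changed sites suprabasal TACs alone held 57.5%, 83.7% and 66.1%, against 59.7% over all sites. The median differences in sites were 0, 0 and -0.5 in suprabasal against basal TACs, and 0 in each list in hair germ against bulge.

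Single genes of these lists showed where the sites were. Spred1, an inhibitor of the Ras-MAPK cascade, had 6, 6, 17 and 8 sites, with its maximum in basal TACs. Frs2, the docking protein of FGF receptors, had 2, 6, 11 and 12, and Grb2, the adaptor it recruits, 4, 4, 7 and 12. Gab1, another docking protein, had 17, 14, 20 and 20. Spry2, a Sprouty feedback inhibitor, had 5, 7, 12 and 13, and Spred2 20, 17, 24 and 24. Of the ligands Fgf2, a broadly acting growth factor, had 3, 4, 7 and 6 sites, Fgf20, which acts in the forming hair placode, 5, 4, 8 and 6, and Fgf16 2, 2, 5 and 1. Fgf1 had 11, 10, 7 and 9, most in the bulge.

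Genes whose sites were split among the 4 lists most like a member's were found among 6756 genes with at least 5 sites, by the summed absolute difference of the 4 shares. For Fgf5 the closest was Gask1a, with 0, 0, 7 and 3 sites and a difference of 0.0250. For Fgfr1 it was Slit3, with 38, 28, 56 and 33 (0.00704), and for Fgfr2 Ago2, with 9, 7, 7 and 10 (0.0125). For Fgfr3 it was Tbc1d30, with 11, 9, 13 and 18 (0.0153), followed by Id2. For Fgf18 it was Gucy1a1, with 5, 2, 3 and 2 (0.0507). Likeness is over 4 pooled lists and describes counts only.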

How the data were processed

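ATAC-seq was made from 8 samples, 2 per population, and the authors deposited 1 pooled peak list per population (mm10 build). Per the file headers, MACS 2.1.1.20160309 called the peaks from paired-end fragments without a control (q-value cutoff 0.05, local window 10 kb). Bowtie2 2.2.9 and Picard are named in the submitters' processing notes. No source used here gives a shift of read ends. Per the file headers, each deposited peak has a length, a coverage signal (pileup at the summit, not scaled for depth), −log10 values of p and q, and a fold enrichment, which were used as the authors' own scores.

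Y and mitochondrial peaks were left out. Peaks were assigned, merged and counted with Python 3.11.15, pandas 2.3.3, numpy 2.4.6 and scipy 1.17.1, and figures were drawn with matplotlib 3.10.9. The scripts were tested on simulated data. Gene spans and promoters came from RefSeq (GRCm38.p6), which gives no promoter for Fgfr1. Exons and introns were not separated. Coverage was scaled to 1000000 header fragments, or divided by the list's median over common sites. Shares have exact Clopper-Pearson 95% intervals and ratios exact counting intervals. With 1 pooled list per population no test was made, and fragments from PCR are not independent molecules. Alternatives were a −log10 q of 10 or more, equal numbers of peaks, absence scaled for depth, 20 kb, gene spans only, 50% overlap and the scaling. Absence was scaled for depth only, and not for the lower enrichment of the suprabasal list. The members and gene lists were chosen with earlier results of these data known. All 7 members are named. Sites were named when highest in a list, nearest the start, or among the 3 strongest held by both telogen or both TAC lists only. From each pathway list the 3 genes with the largest difference in sites were named, ties included. Other sites were chosen after their values were seen.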

Additional observations from a re-analysis of the deposited data

How the results depend on the processing

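Fewer sites counted at a −log10 q of 10 or more (55 in place of 86) and inside gene spans only (43), by construction. Inside gene spans the hair germ held 0% of the changed sites against the bulge (11.1% before), basal TACs 60% against the hair germ (79.4%) and suprabasal TACs 66.7% against basal TACs (48.6%). This setting drops single peaks by their midpoint. At the Fgf5 start it kept the suprabasal peak and dropped the higher basal one, so that site counted as suprabasal only. The 43 sites include it, whereas by the midpoint of whole sites 42 lay inside a span. With equal numbers of peaks the basal TAC share against the hair germ was 55.6%. The median log2 ratio of coverage, scaled to fragments, of hair germ against bulge went from 0.17 to -0.0031 within 20 kb and inside gene spans. Scaled to common sites, the medians turned from -0.22 to 0.24 (basal TAC against hair germ), from -0.68 to 0.018 (suprabasal against basal TAC) and from -0.84 to 0.27 (suprabasal TAC against bulge). The difference in sites (first-named list only minus second-named only) at Fgfr2 for basal TAC against hair germ went from -1 to 3 at a −log10 q of 10 or more. At Fgfr3 it went from 2 to -1 for suprabasal against basal TAC and from 3 to -1 for suprabasal TAC against bulge, both with that threshold and with equal numbers of peaks. The cause was not tested. The other 47 values for the 9 main results stayed in the 95% interval of the share, within 1.5-fold of the median ratio or within 1.5 times the number of sites. These bounds are wide: the hair germ share against the bulge ranged over 6.25% (−log10 q), 6.67% (20 kb) and 31.2% (equal numbers of peaks), and its median log2 ratio fell to 0.065 at the higher −log10 q. For differences at single genes 144 values stayed within 1.5 times, 39 moved by more without a reversed sign (2 of them from 0, at Fgf7 without Fam227b) and 8 went to 0. With equal numbers of peaks these were Fgfr2 for hair germ against bulge (from -6) and Fgf18 and Fgfr1 for basal TAC against hair germ (from 2 and 6). Inside gene spans they were Fgfr3 for hair germ against bulge (-1) and basal TAC against hair germ (2), Fgfr1 for suprabasal against basal TAC (-5) and Fgfr2 for suprabasal TAC against bulge (3), the last also with absence scaled for depth. Absence of a peak in the hair germ list is limited by its depth of 11053351 fragments. No paired analysis was possible because each list pools both samples of a population, and no sample could be left out for the same reason.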
